A study of Mus musculus with 6 samples.

Results

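The genes described here encode enzymes of glycolysis that serve mouse sperm. They were Hk1, Gpi1, Pfkp, Aldoa, Tpi1, Gapdhs, Pgk2, Eno4 and Ldhc, with Pgk1, the widely expressed partner of Pgk2, and they were found by their symbols in the count table. The 10 symbols matched 11 of the 57010 gene IDs of the table, because Aldoa names a pair of IDs. RNA was sequenced from immunoprecipitates made with an antibody to PNMA4, a protein named Moap1 in mouse gene tables that derives from the capsid gene of a retrotransposon. Each library came from a lysate of 8 testes collected at 3 months, from which dense material was taken by sedimentation onto 70% sucrose and by density in iodixanol before the immunoprecipitation. The 6 libraries were 3 of wild type (C57BL/6J) and 3 controls without the antibody's target. Control replicates 1 and 2 were Pnma4 knockouts (Pnma4-/-), and control replicate 3 was a double knockout (Pnma1-/- Pnma4-/-) that the labels group with them. Each lysate pooled several animals, and the design text names the 3 of a group as biological replicates. Total testis RNA was not analysed here, and a level gives how abundant an RNA was among the RNAs recovered, not how far it was enriched over testis.

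Glycolysis splits glucose into pyruvate and yields ATP in the cytosol. Mouse sperm rely on it for movement, and several of its enzymes are bound to the fibrous sheath of the flagellum. During spermatogenesis some somatic enzymes give way to forms made only in germ cells. GAPDHS takes the place of GAPDH and PGK2 that of PGK1, while LDHC is a germ cell form of lactate dehydrogenase beside LDHA. Pgk2 is a copy of Pgk1 made by reverse transcription. It lies on an autosome, while Pgk1 lies on the X chromosome, which is silenced in meiosis. Messages of some such genes are made ahead of use and stored untranslated in spermatocytes or round spermatids. The comparison asks whether the PNMA4 immunoprecipitate held more RNA of these enzymes than one made without the target protein.

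The regions before the starts of Pgk2, Pgk1 and Ldhc are shown because the counts of Pgk2 are set against those of Pgk1 below, and because Ldhc was the single member whose groups did not overlap. Each is the 250 bases before an annotated start on the gene's strand, 5′ to 3′, from RefSeq (GRCm38.p6). Capitals mark GGGCGG (a GC box), TGACGT (a cAMP response element core) and CCAAT on either strand, and these motifs did not overlap one another.
Pgk2: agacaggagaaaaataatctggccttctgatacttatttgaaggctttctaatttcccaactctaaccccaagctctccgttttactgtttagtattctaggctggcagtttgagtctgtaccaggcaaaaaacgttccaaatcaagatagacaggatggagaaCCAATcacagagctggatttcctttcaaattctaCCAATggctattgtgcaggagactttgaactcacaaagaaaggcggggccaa
Pgk1: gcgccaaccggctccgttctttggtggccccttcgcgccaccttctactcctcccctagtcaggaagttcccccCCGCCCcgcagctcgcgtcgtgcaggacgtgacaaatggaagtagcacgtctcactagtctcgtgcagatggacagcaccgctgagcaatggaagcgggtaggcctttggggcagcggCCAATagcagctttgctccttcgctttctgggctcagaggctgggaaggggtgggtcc
Ldhc: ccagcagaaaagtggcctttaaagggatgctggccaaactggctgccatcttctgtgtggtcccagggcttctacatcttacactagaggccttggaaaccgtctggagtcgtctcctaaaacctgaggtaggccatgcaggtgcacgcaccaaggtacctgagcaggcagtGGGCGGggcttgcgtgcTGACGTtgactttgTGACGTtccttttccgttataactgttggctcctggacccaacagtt
The Pgk2 window (chr17:40208610-40208859, minus strand) held 2 CCAAT matches and 0 of GGGCGG and TGACGT. The Pgk1 window (chrX:106186850-106187099, plus strand) held 1 GGGCGG and 1 CCAAT. The Ldhc window (chr7:46861013-46861262, plus strand) held 2 TGACGT and 1 GGGCGG. Of 32851 such windows of mouse genes, 32.7% held GGGCGG, 6.47% held TGACGT and 33.8% held CCAAT. Over the 15 annotated windows of the 10 members, 7 held GGGCGG, 1 held TGACGT (the Ldhc window above) and 5 held CCAAT. Some windows of the same gene overlap, and by gene 6, 1 and 4 of the 10 held them, in that order. A match is a description of the letters and not a sign of binding.

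Total counts ran from 3138657 to 6367930 per library. The deleted genes had no counts in the libraries of their knockouts. Counts of Moap1 were 7, 26 and 27 for wild type and 0 for each control, and Pnma1 had 0 counts in the double knockout and 76 to 152 elsewhere. A pair of libraries stood apart in composition. The double knockout had 57.5% of its counts in the 18S ribosomal RNA-like gene Rn18s-rs5, against 27.3% to 36.1% in the other 5, and wild-type replicate 2 had 0.751% in Lars2, against 4.34% to 10.8% in the other 5. Levels below are CPM, counts scaled to a common library size with TMM factors, which centre the bulk of genes. The scaling factor was lowest, 0.629, in the double knockout and highest, 1.29, in wild-type replicate 2. All 12 listed spermatid markers and all 8 spermatocyte markers were detected. The summed spermatid markers stood at 1543 to 1979 CPM in wild type and at 1779 to 1950 CPM in the controls. The spermatocyte markers summed to 1063 to 1076 CPM in wild type and 936 to 1019 CPM in the controls, and the groups did not overlap, with 0 of the 8 called. Their median log2 fold change, wild type over control, was 0.018, beside 0.012 over all genes. Somatic markers stood high in the double knockout. The 8 Leydig cell markers summed to 165 to 189 CPM in wild type, 212 and 163 CPM in the Pnma4 knockouts and 422 CPM in the double knockout. The 9 Sertoli cell markers summed to 209 to 296, 317 and 201, and 477 CPM in the same order. Epididymis markers, 5 genes of which Defb20 and Lcn5 were at 0 in all 6 libraries, summed to 0.457 to 0.889 CPM in wild type and 4.40 to 11.6 CPM in the controls. Of the 5, Crisp1 alone passed the filter (named after its values were seen), and it was among the 8 genes called in all, lower in wild type with a log2 fold change of −3.57. In immunoprecipitates from pooled tissue, fewer cells of a type, less RNA per cell and a different recovery cannot be told apart.

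All 11 IDs passed the filter on low counts, and no member was called different between wild type and control in edgeR's quasi-likelihood test with Benjamini-Hochberg adjustment over 13413 genes. Of those genes, 0.0224% were called higher in wild type and 0.0373% lower, 0.0596% in all. The members' adjusted p was 1.00 for each ID, the lowest unadjusted p was 0.0903, and 0 of 11 had an unadjusted p under 0.05, against 2.92% of all genes tested. DESeq2 also called 0 members. Log2 fold changes, wild type over control, lay between −0.40 and 0.22. Of the 11 IDs, 6 were positive and 5 negative, with a median of 0.0064, beside a median of 0.012 over all genes. All 11 had a 95% interval within 1 of 0 on the log2 scale, as had 71.1% of all genes tested. A 2-fold difference, higher or lower, was thus outside the interval of every member after TMM scaling. For 3 of the 11 the interval lay within 1.5-fold. Were the total amount of RNA recovered to differ between the groups, TMM-scaled values would not show it.

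**Figure D1:**
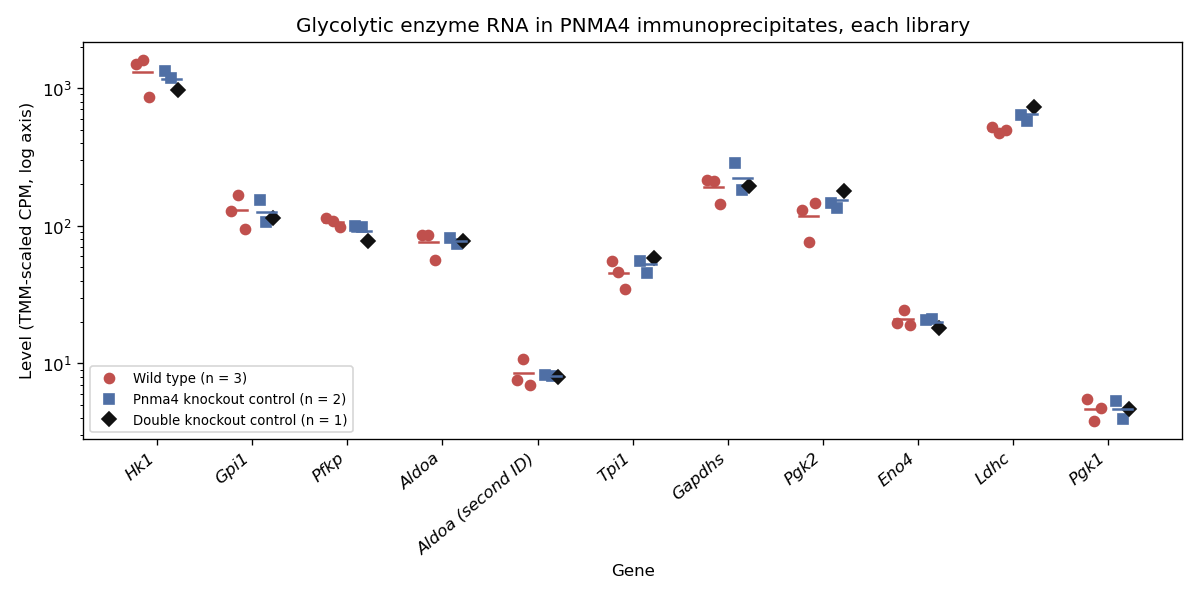
Level of each member (TMM-scaled CPM, log axis) in every library, with wild type (circles, n = 3) left of the controls (squares, Pnma4 knockouts, n = 2; diamond, double knockout, n = 1) and short lines at the group means. Wild type and control ranges overlap for 10 of the 11 IDs, and for Ldhc the 3 controls lie above the 3 wild-type libraries. Levels of different genes are not corrected for length.

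The enzymes of the first steps had means slightly above control and overlapping groups. Hk1 (ENSMUSG00000037012, chromosome 10, 62268855 to 62379920 in GRCm38.p6) encodes hexokinase 1, which phosphorylates glucose, and it gives rise to germ cell transcripts with other first exons that these gene counts do not separate. It had 1509, 1591 and 865 CPM in wild-type replicates 1 to 3, against 1333, 1189 and 967 CPM in control replicates 1 to 3. Wild-type replicate 3 was the lowest library and the other two wild-type libraries were the highest. The mean was 1322 ± 398 CPM in wild type and 1163 ± 184 CPM in control (SD, n = 3 each), a log2 fold change of 0.18 with a standard error of 0.25. Its 95% interval ran from −0.34 to 0.71, and the value was 0.42 without wild-type replicate 3 and 0.037 without wild-type replicate 2.

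Gpi1 (ENSMUSG00000036427, chromosome 7, 34201327 to 34230336) encodes glucose-6-phosphate isomerase. It had 128, 166 and 95.3 CPM in wild type, against 155, 107 and 114 CPM in control. Both ends of its range were wild-type libraries, replicate 2 high and replicate 3 low, and the log2 fold change was 0.057 (standard error 0.23). Pfkp (ENSMUSG00000021196, chromosome 13, 6579874 to 6649060) encodes the platelet-type subunit of phosphofructokinase, which commits sugar to glycolysis. It had 115, 107 and 97.6 CPM in wild type, against 98.9, 97.7 and 78.1 CPM in control. The double knockout was lowest, and the other 5 libraries lay close together. Its log2 fold change was 0.22 (standard error 0.20, 95% interval −0.20 to 0.63), the highest of the members.

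Aldolase and triose phosphate isomerase made up the middle of the pathway. Aldoa encodes aldolase A, which cleaves fructose bisphosphate. Its main ID (ENSMUSG00000030695, chromosome 7, 126795234 to 126800994) had 85.3, 86.0 and 56.6 CPM in wild type, against 81.9, 73.6 and 77.1 CPM in control. The 3 controls lay inside the wild-type range, and the log2 fold change was −0.030 (standard error 0.21). The second Aldoa ID (ENSMUSG00000114515) had 29, 85 and 46 counts in wild type, against 26, 57 and 24 counts in control. That made 7.01 to 10.8 CPM in wild type and 7.98 to 8.19 CPM in control, and how the counting divided reads between the pair of IDs is not stated in the labels. Tpi1 (ENSMUSG00000023456, chromosome 6, 124810586 to 124814158), which encodes triose phosphate isomerase, had 55.6, 46.2 and 34.8 CPM in wild type, against 55.8, 45.5 and 58.2 CPM in control. Wild-type replicate 3 was again lowest, and the log2 fold change was −0.22 (standard error 0.22).

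The sperm-specific enzymes of the lower pathway had means below control for Gapdhs, Pgk2 and Ldhc and close to it for Eno4. Gapdhs (ENSMUSG00000061099, chromosome 7, 30729779 to 30744791) encodes the glyceraldehyde-3-phosphate dehydrogenase that is anchored to the fibrous sheath. It had 215, 211 and 144 CPM in wild type, against 287, 183 and 196 CPM in control. Control replicate 1 was high and wild-type replicate 3 low, with overlapping groups and a log2 fold change of −0.22 (standard error 0.23). Without control replicate 1 the log2 fold change was 0.0043.

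Pgk2 (ENSMUSG00000031233, chromosome 17, 40207018 to 40208609) encodes the germ cell phosphoglycerate kinase. It had 130, 76.2 and 145 CPM in wild type, against 147, 135 and 180 CPM in control. Wild-type replicate 2 was lowest and the double knockout highest, so that the highest library held 2.36 times the lowest, the widest range of the members. The mean was 117 ± 36.2 CPM in wild type and 154 ± 23.2 CPM in control (SD, n = 3 each), a log2 fold change of −0.40 (standard error 0.23, 95% interval −0.87 to 0.08). Without wild-type replicate 2, the library that was also low in Lars2, it was −0.15. The part of that library's composition in the value was not tested.

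Eno4 (ENSMUSG00000048029, chromosome 19, 58934058 to 58971421) encodes an enolase of the sperm tail. It had 19.6, 24.4 and 19.1 CPM in wild type, against 20.8, 20.9 and 17.9 CPM in control. The groups overlapped and the log2 fold change was 0.081 (standard error 0.23). Its span overlaps that of Hspa12a, which had 65 to 174 counts per library, and without the strand setting reads of the shared part cannot be told apart. The same holds for Pfkp and Pitrm1 (35 to 62 counts), Tpi1 and Spsb2 (14 to 69), Hk1 and Hk1os (0 to 9) and Gapdhs and Sbsn (0 to 5).

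Ldhc (ENSMUSG00000030851, chromosome 7, 46861263 to 46878147) encodes the germ cell lactate dehydrogenase, which regenerates NAD+ at the end of the pathway. It had 525, 472 and 499 CPM in wild type, against 636, 580 and 724 CPM in control. All 3 wild-type libraries lay below all 3 controls, the single such case among the 11 IDs. Over all genes tested, 3.43% lay wholly below in wild type and 3.25% wholly above. The mean was 499 ± 26.3 CPM in wild type and 647 ± 72.5 CPM in control (SD, n = 3 each), a log2 fold change of −0.38 with a standard error of 0.21 (95% interval −0.81 to 0.06). It had the lowest unadjusted p of the members (0.0903, edgeR adjusted p = 1.00). The summed spermatocyte markers differed the other way, higher in all 3 wild-type libraries than in the controls. The median log2 fold change of those 8 markers was 0.018, however, beside 0.012 over all genes. Summed epididymis markers, of which 1 of 5 passed the filter, were lower in wild type, as Ldhc was. The part of the spermatocyte, epididymis, Leydig and Sertoli markers in the value of Ldhc was not tested. The groups also did not overlap with RLE and upper-quartile factors. With library totals alone they overlapped, at 537, 607 and 538 CPM in wild type against 643, 643 and 456 CPM in control.

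Pgk1 (ENSMUSG00000062070, chromosome X, 106187100 to 106203699), the somatic and premeiotic kinase, was the member of lowest count. It had 21, 30 and 31 counts in wild type, against 17, 28 and 14 in control. These made 5.48, 3.81 and 4.73 CPM in wild type and 5.36, 3.97 and 4.65 CPM in control. The groups overlapped and the log2 fold change was 0.0064. With so few reads it had the widest 95% interval of the members, −0.70 to 0.72.

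**Figure D2:**
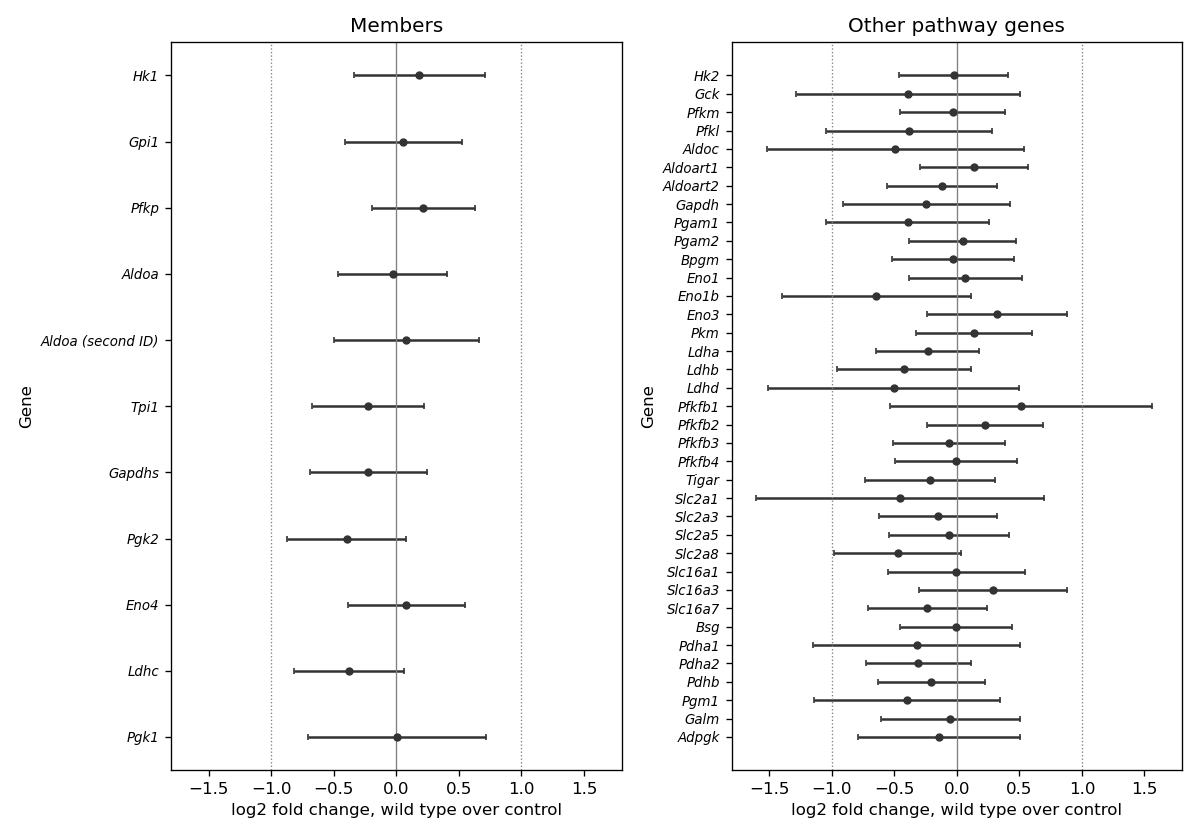
Log2 fold change of wild type over control (points) with its 95% interval (bars) for the 11 member IDs (left) and the 37 other pathway genes tested (right); dotted lines mark a 2-fold difference. Every interval includes 0, and those of the members all lie inside the dotted lines.

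The members did not move as 1 block between libraries. Relative to each gene's mean over the 6 libraries, wild-type replicate 3 was low for Hk1 (log2 deviation −0.49), Gpi1 (−0.39), Aldoa (−0.42), Tpi1 (−0.48) and Gapdhs (−0.49) and close to the mean for Pgk2 (0.14) and Eno4 (−0.09). Wild-type replicate 2 was high for Hk1 (0.39) and Gpi1 (0.41) and low for Pgk2 (−0.78), Ldhc (−0.26) and Pgk1 (−0.26). The double knockout was high for Pgk2 (0.45) and Ldhc (0.35) and low for Hk1 (−0.33) and Pfkp (−0.33). Wild-type replicate 3 was the lowest library for 6 of the 11 IDs, against 18.0% of all genes tested, and wild-type replicate 2 was the highest for 5 of 11, against 16.9%. For every member ID except Ldhc the range among the 3 wild-type libraries was wider than the difference between the group means. These deviations share their libraries and scaling factors.

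**Figure D3:**
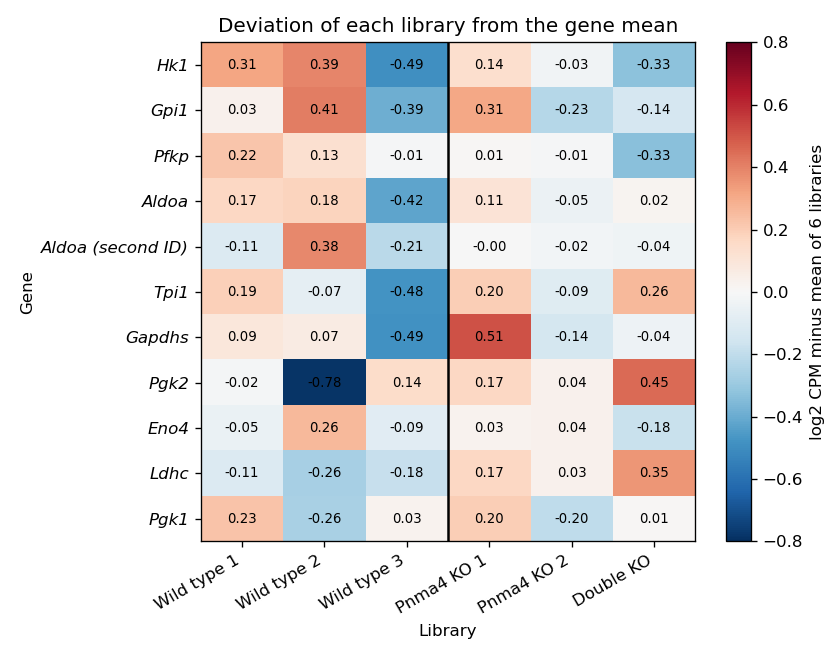
Log2 CPM of each member (rows) in each library (columns, wild type left of control) minus its mean over the 6 libraries, printed in each cell, with red above and blue below the mean. Wild-type replicate 3 is low for Hk1, Gpi1, Aldoa, Tpi1 and Gapdhs, and the most negative cell is Pgk2 in wild-type replicate 2 (−0.78).

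The summed level of the members was 2794, 2796 and 1968 CPM in wild type, against 2830, 2443 and 2425 CPM in control, with means of 2519 ± 477 and 2566 ± 229 CPM (SD, n = 3 each). Hk1 alone held 54.0%, 56.9% and 43.9% of this sum in wild type, against 47.1%, 48.7% and 39.9% in control. Counts per gene grow with transcript length, so this share does not compare numbers of molecules. Without Hk1 the sum was 1198 ± 91.0 CPM in wild type and 1403 ± 130 CPM in control (SD, n = 3 each), at 1104 to 1285 CPM in wild type and 1254 to 1497 CPM in control, and the groups overlapped.

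Sperm-type enzymes were also set against partners in the same library, where scaling cancels. Only the change of a ratio between libraries can be read, because the genes differ in length. Counts of Pgk2 were 23.7, 20.0 and 30.7 times those of Pgk1 in wild type, against 27.5, 33.9 and 38.6 times in control. Wild-type replicates 1 and 2 were lowest, and replicate 3 lay within the control range. Pgk1 had only 14 to 31 counts per library, so these ratios are imprecise and the order of libraries is uncertain. Counts of Ldhc were 2.15, 2.11 and 2.32 times those of Ldha in wild type, against 2.45, 2.24 and 2.54 times in control. Ldha, the somatic lactate dehydrogenase subunit, lies 5635 bases from Ldhc in the annotation. Like Ldhc it was lower in all 3 wild-type libraries than in all 3 controls, at 228 ± 14.9 CPM in wild type and 268 ± 14.7 CPM in control (SD, n = 3 each; log2 fold change −0.23, edgeR adjusted p = 1.00).

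Counts of Gapdhs were 19.1, 12.1 and 12.3 times those of Gapdh in wild type, against 20.3 and 21.8 times in the Pnma4 knockouts and 7.02 times in the double knockout. The 3 control values thus spanned the wild-type range on both sides. Counts of Eno4 were 0.175, 0.279 and 0.292 of those of Eno1, the general enolase, in wild type, against 0.253, 0.284 and 0.185 in control. The retrogenes Aldoart1 and Aldoart2, germ cell copies of Aldoa, held 0.490 ± 0.0691 and 0.834 ± 0.0866 of its counts in wild type, against 0.427 ± 0.0356 and 0.883 ± 0.0675 in control (SD, n = 3 each). Groups overlapped for all 6 ratios. Reads of such copies can match the parent gene, and the labels do not state how they were counted. The 22 IDs named as pseudogenes or related sequences of glycolytic genes had at most 9 counts in a library, so few reads were assigned to them.

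**Figure D4:**
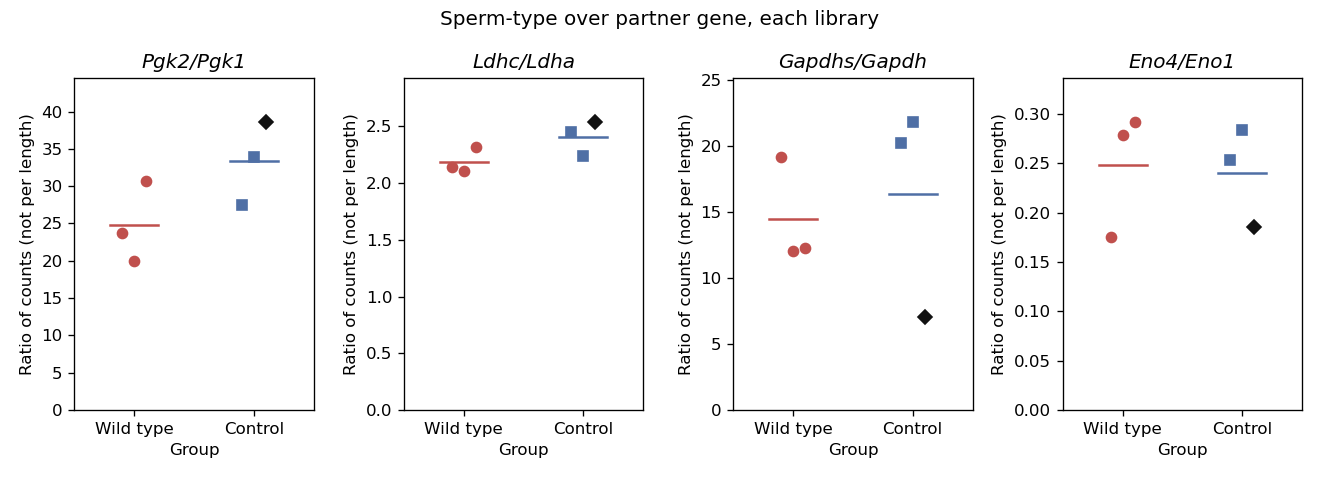
Ratio of counts of a sperm-type gene to its partner in each library (y axis, not per length), with wild type (circles) left of control (squares, Pnma4 knockouts; diamond, double knockout) and lines at the group means. The groups overlap for all 4 ratios shown, and the double knockout has the lowest Gapdhs/Gapdh ratio (7.02). The Pgk2/Pgk1 ratio rests on 14 to 31 Pgk1 counts per library.

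The library that also lacks Pnma1 was compared with the 2 Pnma4 knockouts in a model with 3 genotypes. The double knockout is 1 library, so its spread was taken from the other groups. No member was called (0 of 11, against 0.0746% of all genes tested; edgeR adjusted p of at least 0.995), and 0 of 11 had an unadjusted p under 0.05, against 6.18% of all genes. Log2 differences, double knockout over Pnma4 knockout, ran from −0.38 for Hk1 (standard error 0.39) to 0.35 for Pgk2 (standard error 0.35), with a median of −0.027 beside −0.0036 over all genes. Of the 37 other pathway genes, 0 were called and 7 had an unadjusted p under 0.05. The somatic enzyme Gapdh was among them, at 27.9 CPM in the double knockout against 14.2 and 8.37 CPM in the Pnma4 knockouts and 11.2 to 17.5 CPM in wild type (log2 difference 1.36, standard error 0.39, edgeR adjusted p = 0.325). Aldoc, Pfkl and Pgam1, named after their values were seen, had log2 differences of 2.03, 1.23 and 1.05 (edgeR adjusted p = 0.326, 0.456 and 0.656). The same library had the highest summed Leydig and Sertoli cell markers, and their part in these values was not tested.

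The wider list of glycolysis, sugar transport and pyruvate genes held 44 symbols, of which 37 passed the filter. No gene of it was called in either direction between wild type and control (0 of 37), and 0 had an unadjusted p under 0.05, with 0.0675 as the lowest p. Log2 fold changes were negative for 29 of the 37 (median −0.14), where 48.1% of all genes were negative. The count of negative values fell to 22 of 37 without the double knockout and to 20 of 37 without wild-type replicate 3, with medians of −0.083 and −0.12. It was 23 of 37 both without control replicate 1 and in limma-voom, where the medians were closest to 0, at −0.040 and −0.048. With library totals alone it was 10 of 37, and the median was 0.20 where that of all genes was 0.31. The groups did not overlap for 4 genes, all lower in wild type (Ldha, Eno1b, Slc2a8 and Pdha2), against 3.43% of all genes in that direction.

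Among the most abundant of these genes was Slc2a3, the glucose transporter GLUT3 of spermatids and sperm, at 1111 ± 84.0 CPM in wild type and 1234 ± 196 CPM in control (SD, n = 3 each). Slc2a5, a fructose transporter, stood at 314 ± 95.8 and 327 ± 58.8 CPM in wild type and control. Slc16a7, the monocarboxylate transporter MCT2, had 139 ± 45.8 CPM in wild type, against 165 ± 24.4 CPM in control. Pkm, the pyruvate kinase that ends the pathway, stood at 150 ± 44.8 and 136 ± 15.3 CPM, and Pfkm, the muscle-type phosphofructokinase, at 88.1 ± 13.4 and 90.1 ± 9.30 CPM in the same order. For each of these 5 genes the difference between group means was smaller than the larger of its SDs. Pdha2, the germ cell copy of the pyruvate dehydrogenase subunit, had 46.5, 39.7 and 49.7 CPM in wild type, against 51.7, 53.0 and 63.5 CPM in control (log2 fold change −0.31, edgeR adjusted p = 1.00).

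Profiles like those of Hk1 and Ldhc were sought among the other genes. Of 1156 other genes with a mean of at least 100 CPM, 122 had a Pearson r over 0.9 with Hk1 in log2 CPM over the 6 libraries, and 7 with Ldhc. Those most like Hk1 were Samd4 (0.998), Abl1 (0.995) and Tln2 (0.989), and those most like Ldhc were 1700001J11Rik (0.978), Cct4 (0.957) and Gk2 (0.952). The values share libraries and scaling factors, and are given as a description.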

How the data were processed

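RNA was measured in 6 libraries of PNMA4 immunoprecipitates, 3 of wild type and 3 of control. The authors deposited 1 table of raw counts per Ensembl gene ID, used here unchanged. The tools named, per the submitters' processing notes, were STAR 2.5.2b, featureCounts, bcl2fastq 2.20 and DESeq2, on the build GRCm38. Library preparation, strand setting, multimapping rule and annotation release are not stated there. Such settings decide how reads of near-identical copies were counted. Counts were tested with edgeR 4.0.16 in R 4.3.3 (quasi-likelihood F test, filterByExpr with a minimum count of 10 and total of 15, TMM, Benjamini-Hochberg at 0.05 over 13413 genes), and the step was tested on simulated data. Standard errors were taken from the fold change and the root of F, and log2 CPM values used a prior count of 2. The SDs cover the spread between the 3 libraries of a group only. The standard errors also cover only spread between libraries, and the edgeR fit draws on other genes in estimating it. The lowest chi-square per gene between a pair of libraries was 6.28, so none repeats another within sampling noise. All 10 symbols matched the RefSeq table of GRCm38.p6, which gave coordinates. Transcript lengths were not used here, so any ranking of genes by level is by CPM not corrected for length. The alternatives were DESeq2 1.42.0, limma-voom (limma 3.58.1), other scalings and filters, a replicate block and leaving out each library. Members and lists were chosen with earlier results of these data known. The named genes were all members, the partners Gapdh, Ldha, Eno1, Aldoart1 and Aldoart2, the 6 most abundant other pathway genes, Moap1, Pnma1 and the 3 genes most like Hk1 and Ldhc, with any others named after their values were seen.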

Additional observations from a re-analysis of the deposited data

How the results depend on the processing

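No member and no other pathway gene was called in the comparison of wild type with control under any of the 14 alternatives, and the lowest adjusted p of a member was 0.430, without wild-type replicate 3. The count over all genes was 8 with the chosen settings, 31 without a filter (34610 genes tested) and 3 with a minimum count of 30 (9322 tested, Pgk1 not among them). With 1 library left out it ran from 8 to 11. The members' median log2 fold change ran from −0.15 to 0.15 with 1 library left out. With library totals alone it was 0.31, where the median of all genes was also 0.31. There Aldoa, Tpi1 and Gapdhs changed sign to 0.28, 0.10 and 0.071, each below that shift, and the summed level moved to 0.27 on the log2 scale. Of 153 member values under the alternatives, 16 changed sign, all of them uncalled. In limma-voom Aldoa was 0.043. With the replicate block Pgk1 was −0.0053 and the count over all genes was 7. Same-numbered libraries had correlations of their deviations from the group means of 0.037, −0.064 and 0.079. Those of differently numbered libraries ran from −0.19 to 0.19. With 3 libraries per group these values cannot tell whether the numbers pair the samples. With 1 library left out, the log2 fold changes ran from −0.12 to 0.15 for Aldoa, −0.15 to 0.22 for its second ID, −0.041 to 0.16 for Eno4, −0.35 to 0.0043 for Gapdhs, −0.16 to 0.25 for Gpi1 and −0.12 to 0.15 for Pgk1. Ldhc ran from −0.45 to −0.30, Pgk2 from −0.58 to −0.15, Hk1 from 0.037 to 0.42, Pfkp from 0.11 to 0.28 and Tpi1 from −0.39 to −0.051. The cause of these changes was not tested. The double knockout comparison called 0 members under the 5 alternatives run, with 0.133 as the lowest adjusted p. Depth limited Pgk1 most, with 14 to 31 counts per library.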

Other observations

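Other marker lists, which enter no comparison of the glycolytic genes, were summed in the same libraries. The 6 spermatogonia markers stood at 54.8 to 56.3 CPM in wild type, at 50.1 and 57.9 CPM in the Pnma4 knockouts and at 79.8 CPM in the double knockout. Peritubular and vascular markers stood at 49.7 to 66.5 CPM in wild type, at 62.7 and 57.0 CPM in the Pnma4 knockouts and at 89.4 CPM in the double knockout. Blood and macrophage markers stood at 12.7 to 17.5 CPM in wild type, at 18.0 and 13.0 CPM in the Pnma4 knockouts and at 24.3 CPM in the double knockout.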
